A study of Rattus norvegicus with 6 samples.

Results

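NMDA receptors are glutamate-gated cation channels that pass calcium and, at rest, are blocked by magnesium. Each receptor is built from an obligatory GluN1 subunit, which binds the co-agonist glycine or D-serine, together with GluN2 subunits, which bind glutamate, or GluN3 subunits, which bind glycine. The GluN2 type sets how fast the channel closes and how strongly magnesium blocks it, and in retinal ganglion cells (RGCs), whose axons form the optic nerve, NMDA receptors carry part of the excitation received from bipolar cells. The 7 genes that encode the family were examined here: Grin1, Grin2a to Grin2d, Grin3a and Grin3b. They were chosen by gene symbol, with earlier results of these data known, and all 7 are among the 17366 transcripts of the deposited table. Of the 7, 6 reached the level needed for testing, an FPKM (fragments counted, scaled to transcript length and sequencing depth) of at least 1 in at least 3 libraries. Grin2c did not, and Grin2b did so in exactly 3 libraries.

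The libraries were made from cultured RGCs of Sprague Dawley rats labelled P5, grown for 10 days. The 3 Chrdl1 libraries come from cultures given chordin-like 1 (Chrdl1), a secreted antagonist of bone morphogenetic proteins, at 1 µg/ml for 12 h. The 3 vehicle libraries come from cultures given buffer with 0.1% BSA and 4 mM HCl. Each of 3 codes in the sample titles is shared by 1 library of either group, and these pairs are called A, B and C. What the codes stand for is not said, nor whether the libraries of a group are separate cultures or animals, so the spread behind each p-value is that of these libraries and may be technical. One protocol field names visual cortex as the source of RNA, and all other labels name RGC cultures.

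Recovered read totals ran from 14546600 in the vehicle library of pair B to 26551800 in the vehicle library of pair C. The RGC gene Rbpms was at 78.4 to 98.1 FPKM. Neurod6, a cortical neuron gene, was at most 0.382 FPKM and the astrocyte gene Gfap at most 1.24 FPKM. Markers of other cell types differed between pairs, and some also between treatments. Over all 8 microglial markers searched, summed FPKM ran from 21.1 to 208 in vehicle and from 11.4 to 186 in Chrdl1 libraries, with both lowest values in pair B and the Chrdl1 library the lower in all 3 pairs. Over the 6 bipolar cell markers it ran from 11.3 to 47.3 and from 12.2 to 52.2, with the highest values in pair C. In such bulk RNA, fewer cells of a type and less RNA per cell cannot be told apart.

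Because the data turn first on how far apart the subunit genes lie, the sequences upstream of the most abundant and the least abundant of them are shown. RefSeq start site windows, on the build GRCr8, were found for 4 of the 7 genes (Grin1, Grin2c, Grin2d and Grin3a). The 250 bases before the start site are given 5′ to 3′ on the gene's strand, with CpG dinucleotides in capitals. The first window is chr3:28528755-28529004 (minus strand) and the second is chr10:101005139-101005388 (minus strand).
Grin1: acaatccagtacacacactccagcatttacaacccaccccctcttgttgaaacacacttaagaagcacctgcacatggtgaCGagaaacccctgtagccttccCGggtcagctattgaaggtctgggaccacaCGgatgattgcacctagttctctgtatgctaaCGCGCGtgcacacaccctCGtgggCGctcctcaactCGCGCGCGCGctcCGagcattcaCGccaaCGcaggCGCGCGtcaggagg
Grin2c: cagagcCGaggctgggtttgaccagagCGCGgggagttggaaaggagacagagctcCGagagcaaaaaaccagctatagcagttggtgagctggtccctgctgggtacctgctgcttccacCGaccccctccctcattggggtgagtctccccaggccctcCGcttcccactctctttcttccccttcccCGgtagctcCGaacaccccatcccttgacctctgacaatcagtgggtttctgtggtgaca

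The Grin1 window held 19 CpG dinucleotides and the Grin2c window 8. The Grin2d window held 9 and the Grin3a window 16, and the median over all 33469 windows was 5. Their GC contents were 57.6%, 59.6%, 60.4% and 60.4% for Grin1, Grin2c, Grin2d and Grin3a. The GC box GGGCGG, the letters bound by Sp1 family factors, was searched on both strands of the 300 bases that run from 250 before to 50 after the start site. It was found once in Grin1, starting 30 bases into the transcript, and in none of the other 3 windows, where 33.1% of all windows hold it. The Grin1 match, in capitals, lies at chr3:28528710-28528735 (minus strand).
Grin1 GC box: caggaagcggGGGCGGtgggaggggt
The TATA box TATAAA, found in 14.2% of all windows, matched in none of the 4. The NRF1 motif, found in 4.25% of all windows, matched in none of the 4 either. These matches are a description of letters and do not show binding.

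Grin1 transcript stood far above all other NMDA receptor subunit transcripts. Grin1, which encodes GluN1, was at 86.7, 76.7 and 74.6 FPKM with vehicle (pairs A, B, C) and at 81.0, 69.6 and 67.7 FPKM in the Chrdl1 libraries. Every library lay within that range, which rests on 4233 to 8053 reads. Its mean of 76.1 FPKM was at percentile 95.8 of all transcripts in the table, while the other 6 members lay between percentile 27.5 and 52.2. Grin1 made up 83.5% to 89.0% of the summed FPKM of the 7 genes. Its level was 10.1 to 17.6 times the summed level of the 4 GluN2 genes. Per the table, Grin1 is on chromosome 3 from 2507745 to 2534663 of rn6, minus strand. RefSeq lists 8 curated Grin1 transcripts, of which the table holds 1 of 3792 bases, so the splice forms of GluN1 are not resolved.

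Among the GluN2 genes, Grin2a and Grin2d were the most abundant, Grin2b was lower and Grin2c was nearly absent. Grin2a encodes GluN2A, which in the forebrain replaces GluN2B at maturing synapses. It was at 2.27, 3.76 and 1.34 FPKM with vehicle (pairs A, B, C) and at 1.82, 3.38 and 2.01 FPKM in the Chrdl1 libraries. Both libraries of pair B were above all others, and the 2 groups overlapped.

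Grin2d encodes GluN2D, whose receptors close slowly and are weakly blocked by magnesium. It was at 2.4, 2.27 and 1.91 FPKM in vehicle and 2.71, 2.28 and 2.27 FPKM in Chrdl1 libraries, from 173 to 331 reads. Grin2d varied least of the GluN2 genes, with an SD of 11.1% of its mean over the 6 libraries against 38.7% for Grin2a and 24.3% for Grin2b. Grin2b encodes GluN2B, the main partner of GluN1 in the immature forebrain. It was at 0.880, 1.52 and 0.826 FPKM in vehicle and 0.915, 1.19 and 1.08 FPKM in Chrdl1 libraries, from 112 to 143 reads. The highest value was again in pair B, and the groups overlapped.

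Grin2c encodes GluN2C, best known from cerebellar granule cells. It was at 0.065, 0.063 and 0.155 FPKM in vehicle and 0.01, 0.02 and 0.132 FPKM in Chrdl1 libraries, from 1 to 18 reads per library. The 2 libraries of pair C held 32 of these reads, and those of pairs A and B held 8 and 6. Pooled by pair, that gave 0.144 FPKM in pair C (exact Poisson 95% interval 0.0986 to 0.204), 0.0383 in pair A (0.0165 to 0.0754) and 0.0367 in pair B (0.0135 to 0.0798). The intervals cover counting error only, and that of pair C does not meet the others. Pair C also had the highest photoreceptor markers, 50.1 and 50.9 summed FPKM against 2.99 to 6.04 in the other libraries, and the highest bipolar cell markers. Their part in the Grin2c reads was not tested.

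Both GluN3 genes were present, and Grin3b was the higher in 6 of 6 libraries. GluN3 subunits lower calcium flux and magnesium block, and with GluN1 alone they form channels opened by glycine. Grin3b, encoding GluN3B, was at 3.45, 5.10 and 3.90 FPKM in vehicle and 3.26, 5.51 and 3.99 FPKM in Chrdl1 libraries. The order of the pairs, A lowest and B highest, was the same in both groups. Grin3a, encoding GluN3A, a subunit prominent in young neurons, was at 1.67, 1.81 and 1.40 FPKM in vehicle and 1.31, 1.40 and 1.59 FPKM in Chrdl1 libraries. Pair B was above pair A in both groups, and pair C was lowest with vehicle and highest with Chrdl1.

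The Grin3b value is uncertain because of where the gene lies. The table places it on the plus strand of chromosome 7 from 12764993 to 12771310 of rn6. All 6318 bases of that span lie inside the span of Palm, encoding paralemmin, which runs on the minus strand from 12708036 to 12793634, and its last 72 bases overlap Tmem259. The library kit marks strand, but whether the counting used it is not given in the sources used here. Palm was at 86.0 to 115 FPKM, highest in pair A, where Grin3b was lowest. For the other members the table's spans meet no expressed transcript except 8 bases of Lrrc26 at the end of Grin1. Lrrc26 was at most 0.550 FPKM.

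The order of mean level, per kilobase, was Grin1, Grin3b, Grin2a, Grin2d, Grin3a, Grin2b and Grin2c. Grin1 was 12.6 to 25.2 times Grin3b. Grin3b was above Grin2a in 6 of 6 libraries, by 1.36 to 2.91 times. Grin2a and Grin2d could not be ordered: Grin2a was the higher in 2 of 6 libraries, both of pair B, and the log2 ratio of their FPKM was -0.0082 ± 0.544 (SD, n = 6). Grin2d was above Grin3a in 6 of 6 libraries, by 1.25 to 2.07 times, and Grin3a was above Grin2b in 6 of 6, by 1.18 to 1.90 times, although the ranges of Grin3a and Grin2b over libraries overlapped. Grin2a was 1.62 to 2.83 times Grin2b. The 6 libraries share 3 codes, so they are not 6 independent cultures.

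**Figure D1:**
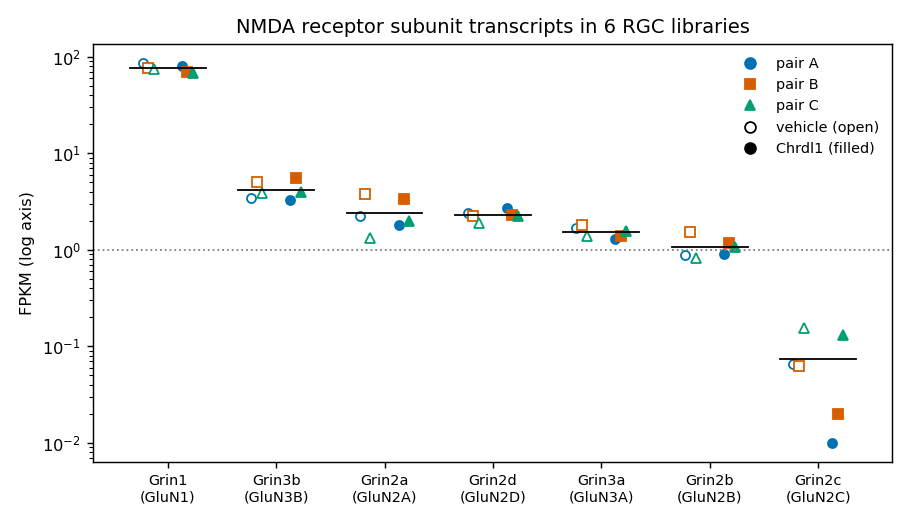
FPKM on a log axis (vertical) of the 7 subunit genes (horizontal), 1 point per library, open for vehicle and filled for Chrdl1, with shape and colour for the pair. Black bars are the means of 6 libraries, and the dotted line is the FPKM of 1 used for testing. Grin1 lies at 67.7 to 86.7 FPKM and Grin2c at 0.01 to 0.155 FPKM.

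The other ionotropic glutamate receptor families gave a scale for these levels. The 4 AMPA receptor genes summed to 40.7 to 59.0 FPKM and the 7 kainate and delta receptor genes to 52.2 to 58.2 FPKM. The 7 NMDA receptor genes summed to 78.8 to 97.5 FPKM, of which the GluN2 genes gave 4.23 to 7.61 and the GluN3 genes 4.57 to 6.92 FPKM. Without Grin1, the NMDA receptor genes came to 0.205 to 0.249 times the summed AMPA receptor FPKM.

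Whether the added protein alters these transcripts within 12 h is the question the 2 groups address. No NMDA receptor subunit gene passed the threshold. Limma, fitted to log2(FPKM + 1) over all 10390 tested transcripts with treatment as the only term, called 0 of the 6 tested members at a Benjamini-Hochberg adjusted p under 0.05, and 0% of all tested transcripts. At an unadjusted p under 0.05 it also gave 0 members. The fit with the pair as a replicate block gave 0 members as well, where 5.15% of all tested transcripts had an unadjusted p under 0.05, 4.19% being lower with Chrdl1. That tilt depended on the scaling: the block fit had 100 such transcripts higher and 435 lower, voom on recovered reads with the block 315 and 183, and the block fit with a length trend removed 221 and 222. Of the 6 log2 fold changes, Chrdl1 minus vehicle, 4 were positive and 2 negative, with a median of 0.0078, beside -0.028 over all tested transcripts. In no member were the 2 groups free of overlap, which 2.44% of tested transcripts were.

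Grin1 differed by nearly the same small amount in every pair. The vehicle mean was 79.4 ± 6.49 FPKM and the Chrdl1 mean 72.8 ± 7.17 FPKM (SD, n = 3 each). The log2 fold change was -0.12 ± 0.11 (SE; 95% interval -0.38 to 0.13; limma adjusted p = 0.99975). The Chrdl1 library was the lower in all 3 pairs, with log2 differences of -0.098, -0.14 and -0.14 in pairs A, B and C. Among tested transcripts, 19.5% were lower in all 3 pairs. With the replicate block the SE was 0.060 and the interval -0.26 to 0.0063 (limma adjusted p = 0.87158). In 2 alternatives with the block the interval did not span 0. It was -0.24 to -0.011 with the length trend removed, an alternative chosen after seeing the data (limma unadjusted p = 0.0346, adjusted p = 0.98624), and -0.23 to -0.0097 without pair C (limma unadjusted p = 0.0355, adjusted p = 0.90982). As a sum, microglial markers were lower with Chrdl1 in the same 3 pairs, at 132, 11.4 and 186 against 158, 21.1 and 208 FPKM. Single microglial genes went the other way. In pair C, Itgam (7.54 against 6.14 FPKM), Csf1r (17.3 against 17.0) and Cx3cr1 (0.063 against 0) were higher with Chrdl1. In pair A, P2ry12 was higher (0.344 against 0.033). The fold changes of the 6 tested microglial markers were all negative (median -0.365). With the block, 4 had an unadjusted p under 0.05, where 4.19% of all tested transcripts were lower at that threshold. Endothelial and mural markers were also lower in each pair as a sum, at 85.7, 10.6 and 135 against 93.4, 16.7 and 140 FPKM. Most of that sum was Acta2, at 73.4, 7.08 and 110 against 80.6, 10.0 and 115 FPKM. The endothelial genes Pecam1, Cldn5 and Cdh5 were at most 0.397, 0.029 and 0.114 FPKM. Not all members were lower: Col1a1 in pair A, Pdgfrb, Rgs5 and Pecam1 in pair C, and Cdh5 in each pair were higher with Chrdl1. Their part in the Grin1 difference was not tested. On leaving out 1 library, the Grin1 difference ran from -0.20 to -0.060, the latter without the vehicle library of pair A.

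All 3 tested GluN2 genes had a positive log2 fold change, each with an interval that spanned 0, and only Grin2d kept that sign in all 3 pairs. Grin2a was at 2.45 ± 1.22 FPKM with vehicle and 2.4 ± 0.847 with Chrdl1, a log2 fold change of 0.011 ± 0.30 (SE, 95% interval -0.71 to 0.73). In pairs A and B it was lower with Chrdl1, at -0.21 and -0.12, and in pair C higher, at 0.37. Grin2b was at 1.08 ± 0.387 and 1.06 ± 0.139 FPKM, with 0.0043 ± 0.20 (interval -0.47 to 0.48) and pair values of 0.027, -0.20 and 0.19. Grin2d was at 2.20 ± 0.253 and 2.42 ± 0.249 FPKM, with 0.099 ± 0.16 (interval -0.27 to 0.47). It was higher with Chrdl1 in all 3 pairs, at 0.12, 0.0040 and 0.17, as were 7.55% of tested transcripts. The pair B value is the difference between 2.27 and 2.28 FPKM. On leaving out 1 library, Grin2d ran from 0.033 (without vehicle C) to 0.15 (without vehicle A), and was 0.039 without Chrdl1 A.

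The GluN3 genes also lay within the spread. Grin3a was at 1.63 ± 0.210 FPKM with vehicle and 1.43 ± 0.143 with Chrdl1, a log2 fold change of -0.11 ± 0.16 (interval -0.50 to 0.28). Pairs A and B were at -0.21 and -0.23 and pair C at 0.11. On leaving out 1 library, Grin3a ran from -0.17 (without vehicle C) to -0.060 (without vehicle B), and was -0.073 without Chrdl1 A. Grin3b was at 4.15 ± 0.857 and 4.25 ± 1.15 FPKM, with 0.019 ± 0.21 (interval -0.48 to 0.52) and pair values of -0.061, 0.092 and 0.027. Grin2c, fitted only when no filter on low values was used, was at -0.055 ± 0.062. On this scale a change in a gene so near 0 is understated.

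The members' values were also summarised by pair, as a description with no test. The median log2 fold change of the 6 tested members was -0.080, -0.13 and 0.14 in pairs A, B and C. For the 2416 tested transcripts of 3000 to 5500 bases, the range that holds the members' lengths of 3148 to 5244 bases, it was -0.013, -0.021 and 0.021. For all tested transcripts it was -0.013, -0.022 and -0.055. Removing the length trend from each library left Grin1 at -0.12, Grin2d at 0.075 and Grin3a at -0.099.

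The intervals bound the changes these libraries could hide. Without the block, the 95% interval of the fold change of FPKM + 1 spanned 0.769 to 1.09 for Grin1, 0.612 to 1.66 for Grin2a and 0.827 to 1.39 for Grin2d. For Grin2b, Grin3a and Grin3b it spanned 0.723 to 1.39, 0.707 to 1.21 and 0.716 to 1.43. With the pair as a block the intervals were narrower. On the log2 scale of FPKM + 1 they ran from -0.26 to 0.0063 for Grin1, -0.28 to 0.31 for Grin2a and -0.16 to 0.35 for Grin2d. For Grin2b, Grin3a and Grin3b they ran from -0.29 to 0.30, -0.39 to 0.17 and -0.21 to 0.25. Each interval is for 1 gene alone. With values of only 1 to 2 FPKM for Grin2b and Grin3a, the change in FPKM itself can be larger than the change in FPKM + 1.

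**Figure D2:**
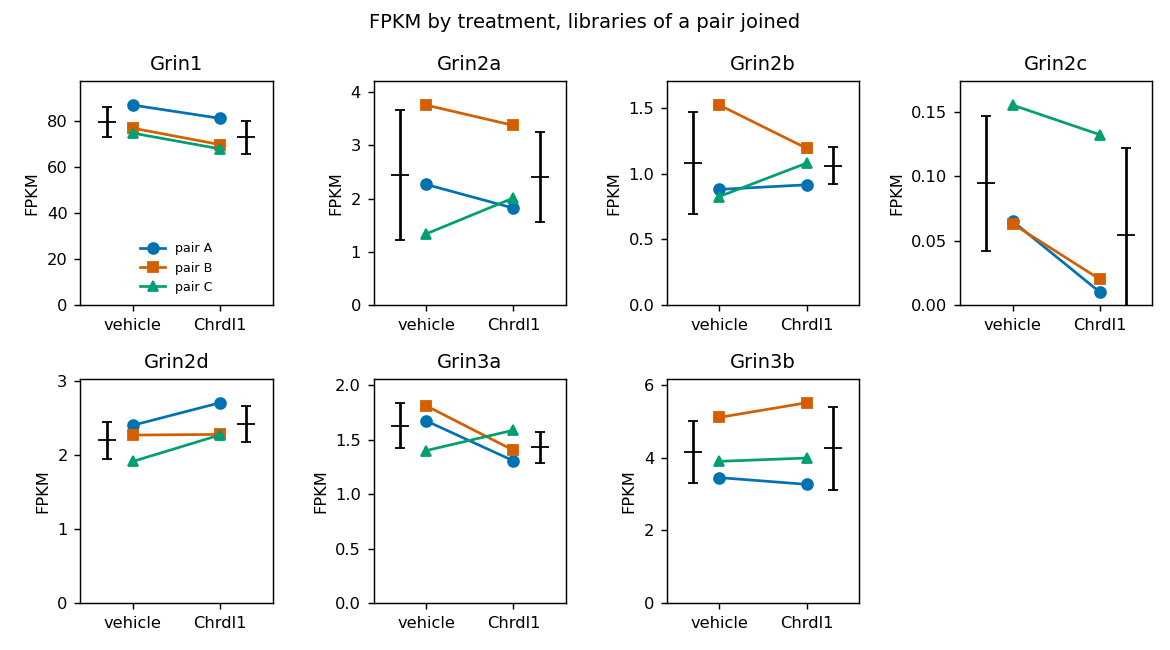
FPKM (vertical axes, from 0, each panel on its own scale) of the 7 subunit genes in vehicle and Chrdl1 libraries, with lines joining the libraries of a pair and black bars for the mean ± SD of 3 libraries. The lower arm of the Chrdl1 bar of Grin2c runs below 0 and is not drawn. The Chrdl1 end of all 3 Grin1 lines is the lower, at 81.0, 69.6 and 67.7 against 86.7, 76.7 and 74.6 FPKM.

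**Figure D3:**
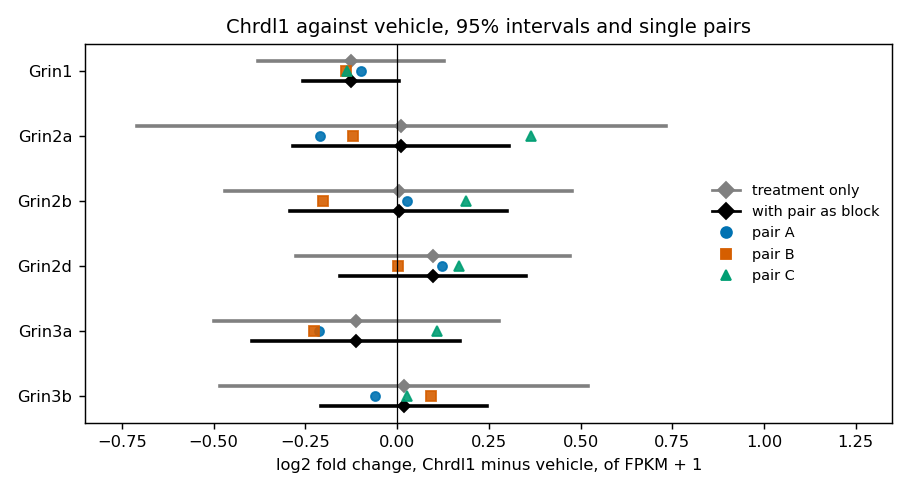
Log2 fold change of FPKM + 1, Chrdl1 minus vehicle (horizontal axis), of the 6 tested genes. Bars are 95% intervals, grey for treatment alone and black with the pair as a block, diamonds are the estimates, and coloured points are single pairs. Each interval spans 0, and the 3 Grin1 points lie between -0.14 and -0.098.

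The makeup of the GluN2 pool ranged more widely over the pairs than its means differed between treatments. Grin2a took 40.4%, 49.4% and 31.6% of summed GluN2 FPKM with vehicle (pairs A, B, C) and 33.4%, 49.2% and 36.6% in the Chrdl1 libraries. Means were 40.5% ± 8.88 (SD, n = 3) and 39.7% ± 8.32 (n = 3), a difference of -0.725 percentage points (exact permutation p = 0.9, two-sided, adjusted p = 0.9 over the 4 such comparisons). Grin2b took 15.7% to 19.6% in 5 libraries and its highest share in the vehicle library of pair B. Its means of 18.4% ± 2.37 and 17.9% ± 1.52 differed by -0.464 points (exact permutation p = 0.9, adjusted p = 0.9). Grin2d took the rest but for Grin2c, from 29.8% to 49.6%, and its share was lowest in both libraries of pair B. With 3 libraries against 3, the smallest p this test can give is 0.1.

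The balance of the families was compared in the same way. The log2 ratio of Grin1 to summed GluN2 FPKM was 3.95, 3.33 and 4.14 in vehicle and 3.89, 3.34 and 3.62 in Chrdl1 libraries, a difference of -0.19 (exact permutation p = 0.6, two-sided, adjusted p = 0.9). The pair differences were -0.058, 0.0075 and -0.52, and leaving out 1 library moved the value from -0.43 (without vehicle B) to -0.023 (without vehicle C). The log2 ratio of summed NMDA to summed AMPA receptor FPKM was 1.02, 0.647 and 1.05 in vehicle and 0.900, 0.499 and 0.792 in Chrdl1 libraries. It was lower with Chrdl1 by 0.12, 0.15 and 0.25 in the 3 pairs, giving a mean difference of -0.18 (exact permutation p = 0.4, two-sided, adjusted p = 0.9). Leaving out 1 library moved it from -0.31 (without vehicle B) to -0.060 (without Chrdl1 B). The groups overlapped, and the exact sign-flip p of the paired differences, 0.25, is the smallest that 3 pairs can give. Grin1 made up 83.5% to 89.0% of the NMDA sum. Without Grin1 the ratio to summed AMPA receptor FPKM was 0.224, 0.249 and 0.234 in vehicle and 0.205, 0.233 and 0.243 in Chrdl1 libraries. That ratio was lower with Chrdl1 in pairs A and B and higher in pair C. Gria2, which encodes the GluA2 subunit of AMPA receptors, was at 14.8 ± 3.47 FPKM in vehicle and 16.3 ± 2.60 FPKM with Chrdl1 (log2 fold change 0.15 ± 0.18, SE) and was not called.

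**Figure D4:**
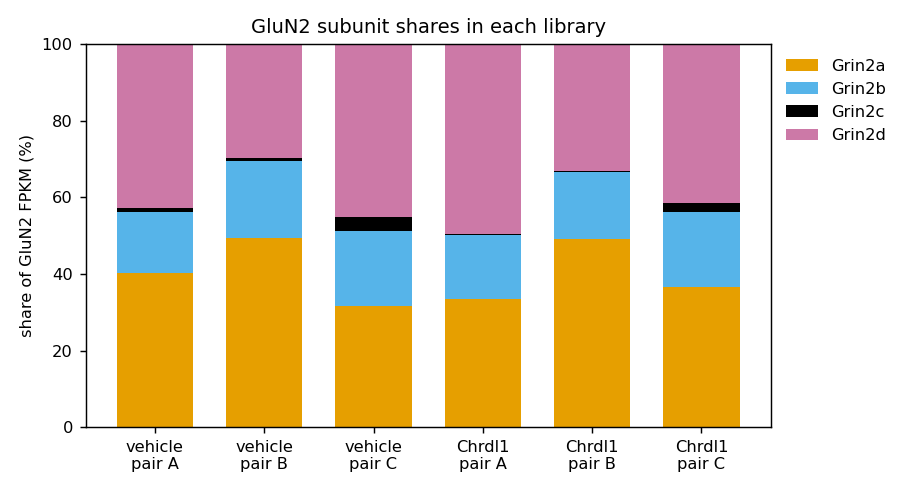
Share of summed GluN2 FPKM in percent (vertical axis) taken by Grin2a, Grin2b, Grin2c and Grin2d in each of the 6 libraries (horizontal axis). Grin2a takes 49.4% and 49.2% in pair B and 31.6% to 40.4% elsewhere, and Grin2c at most 3.66%.

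The range over the title codes was larger than the difference between treatments for Grin2a, Grin3b and Grin1. A range over 3 codes tends to exceed a single difference of means, so the measures are unlike. A limma F test of the codes, with treatment in the model, called 3 of the 6 tested members at an adjusted p under 0.05, where 47.4% of all tested transcripts were called, so the members were called about as often as other genes. Grin2a averaged 2.05, 3.57 and 1.68 FPKM in the pairs A, B, C, a range of 0.78 on the log2 scale (limma adjusted p = 0.0053). Grin3b averaged 3.35, 5.31 and 3.94 FPKM, a range of 0.53 (limma adjusted p = 0.0124). Grin1 averaged 83.9, 73.2 and 71.2 FPKM, a range of 0.23 (limma adjusted p = 0.0382). That call was lost with quantile normalization (limma adjusted p = 0.106) and with no treatment term (0.0726). Also under quantile normalization, Grin3b and Grin3a turned from higher to lower in pair C than in pair A (0.18 to -0.096 and 0.0052 to -0.25 on the log2 scale), as did Grin2b (0.039 to -0.20). Grin2b, Grin2d and Grin3a were not called (limma adjusted p = 0.238, 0.466 and 0.918). With quantile normalization, Grin2b and Grin2d were called (limma adjusted p = 0.0235 and 0.0324) and Grin3a was not (0.139).

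Of the variance over the 6 libraries, the code accounted for 97.8% for Grin3b, 87.3% for Grin2a, 74.7% for Grin2b, 72.6% for Grin1 and 65.4% for Grin2d, on the scale of log2(FPKM + 1). Over all tested transcripts the median was 80.2%. For Grin3a the code accounted for 9.1%. Treatment accounted for 30.6% for Grin3a, 26.8% for Grin1, 23.1% for Grin2d and at most 0.2% for Grin2a, Grin2b and Grin3b, where the median over all tested transcripts was 3.9%. The code has more levels than treatment, so on average it would take the larger share by chance. Grin2a, Grin2b and Grin3b were highest in pair B, whereas Grin1 and Grin2d were highest in pair A.

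Markers of other cells moved with the pairs as well. Relative to pair A, pair B was at -3.22 on the log2 scale for summed microglial markers and at -2.75 for the 7 endothelial and mural markers. Acta2 made up most of the latter sum. The defining microglial genes Cx3cr1 and P2ry12 were at 0 in both libraries of pair B and at most 0.063 and 0.344 FPKM elsewhere. Pair C was at 2.08 for the bipolar cell and 3.20 for the photoreceptor markers. Summed RGC markers differed less, at -0.172 and -0.168 for pairs B and C, but most of that sum was Sncg and Nefl. Single RGC markers moved in opposite directions. Thy1 was at 133 and 153 FPKM in pair B and at 245 and 271 FPKM in pair C. Pou4f2 was at 36.1 and 38.0 FPKM in pair B and at 24.6 and 27.2 FPKM in pair C. Of the 10 tested RGC markers, 7 were called between codes, where 47.4% of all tested transcripts were. The 10 amacrine and horizontal cell markers summed to 107 to 111 FPKM, most of it from Gad2 and Calb1, with Lhx1 at 0. Within that list Gad1 was at 4.90 and 5.59 FPKM in pair C and at 1.64 to 1.95 FPKM in the other libraries, and Slc32a1 at 2.02 and 2.88 against 0.276 to 0.703 FPKM. Of its 5 tested genes, 4 were called between codes, where 47.4% of all tested transcripts were. The part of any of these in the levels of the subunit genes was not tested.

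**Figure D5:**
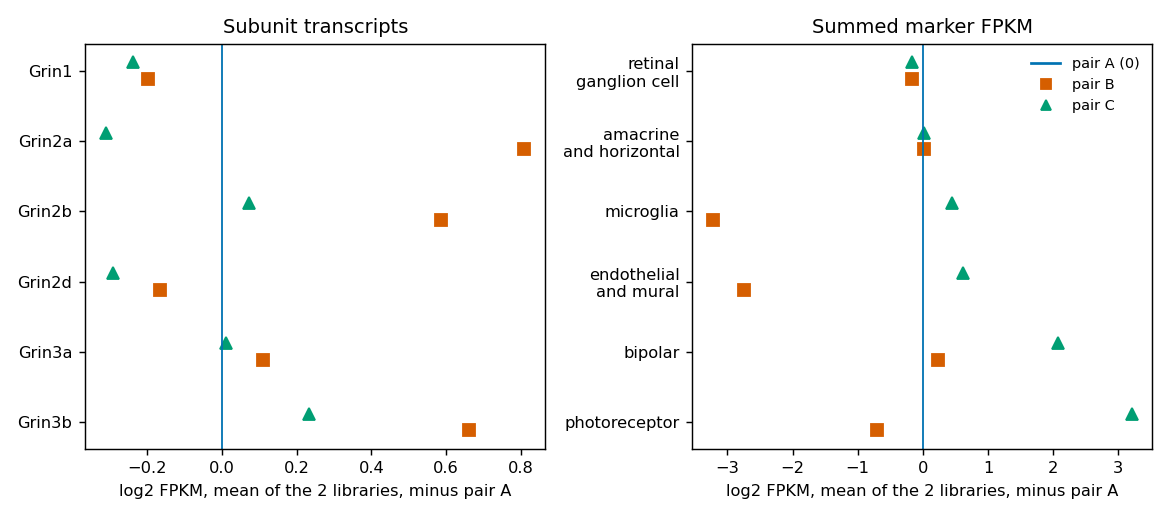
Log2 FPKM relative to pair A (horizontal axes, on different scales), as the mean of the 2 libraries of pair B (squares) and pair C (triangles), for 6 subunit genes (left) and for summed FPKM of 6 marker lists (right). Grin2a lies at 0.809 for pair B and -0.309 for pair C, while the microglial markers lie at -3.22 and 0.446.

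Genes whose profile over the 6 libraries lay closest to each member were found by the root-mean-square difference of log2(FPKM + 1), centred on each gene's mean. For Grin1 the closest of 10389 other transcripts were Klhdc9, Sez6l2 and Dbndd2, at 0.0157, 0.0291 and 0.0334. Klhdc9 was at 8.12, 6.91 and 6.86 FPKM in vehicle and 7.57, 6.23 and 6.20 FPKM in Chrdl1 libraries, which is the Grin1 pattern at a lower level. For Grin2a they were the protocadherin gene Pcdh7, the netrin receptor gene Dcc and the T-type calcium channel gene Cacna1i, at 0.0874, 0.0890 and 0.101. All 3 were highest in pair B and lowest in the vehicle library of pair C, as Grin2a was. Grin2b lay closest to Tmem132b, Pik3r3 and Hdgfrp3, at 0.0384 to 0.0411. Grin2d lay closest to Sipa1l1, Ppia and Ranbp6, at 0.0198 to 0.0291. Ppia has near-identical copies in the genome, so its level of 0.819 to 1.28 FPKM is uncertain. Grin3a lay closest to Sertad2, Abl1 and D2hgdh, at 0.0294 to 0.0428, and Grin3b to Riok1, Zmynd11 and Epc1, at 0.0378 to 0.0383. Among the members themselves Grin1 and Grin2d were the closest, at 0.121, and Grin1 and Grin2a the farthest apart, at 0.389. These distances describe 6 libraries that share 3 codes.

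Partners of the NMDA receptor were read from 9 lists. Of their 93 genes, 89 were in the table and 83 were tested. None was called by limma with or without the replicate block, and none had an unadjusted p under 0.05 in either fit. Voom on recovered reads called 0 of all tested transcripts. Of the 83 log2 fold changes, 45 were positive and 38 negative, with a median of 0.010 beside -0.028 over all tested transcripts. Between title codes, 45 of the 83 were called, where 47.4% of all tested transcripts were.

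The postsynaptic scaffold held 13 tested genes, 7 with a positive and 6 with a negative fold change (median 0.010). Homer1, which links the scaffold to metabotropic receptors, was at 8.65 ± 2.0 FPKM with vehicle and 9.71 ± 1.31 with Chrdl1 (0.17 ± 0.18, SE). Dlg4, encoding PSD-95, which binds the tails of GluN2 subunits, was at 124 ± 8.14 and 118 ± 8.89 FPKM (-0.068 ± 0.10). Of the 17 tested kinases and phosphatases, 8 were positive and 9 negative (median -0.0014). Csnk2a2, a catalytic subunit of casein kinase 2, which phosphorylates GluN2B, was at 32.3 ± 0.689 and 30.1 ± 1.45 FPKM (-0.099 ± 0.081). Ppp3ca, a catalytic subunit of calcineurin, was at 42.1 ± 2.64 and 45.2 ± 3.20 FPKM (0.10 ± 0.093).

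Of the 12 tested genes of calcium and nuclear signalling, 6 were positive and 6 negative (median -0.0018). Nos1, the neuronal nitric oxide synthase coupled to the receptor through PSD-95, was at 0.916 ± 0.231 FPKM with vehicle and 1.19 ± 0.260 with Chrdl1 (0.20 ± 0.19). Calm2, a calmodulin gene, was at 366 ± 32.5 and 349 ± 38.1 FPKM. Of the 9 tested trafficking genes, 4 were positive and 5 negative (median -0.0052). Gipc1, a PDZ adaptor, was at 45.5 ± 5.64 and 42.7 ± 5.06 FPKM.

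Of the 9 tested genes of co-agonist and glutamate handling, 3 were positive and 6 negative (median -0.033). Srr, the serine racemase that makes D-serine, was at 24.7 ± 1.92 FPKM with vehicle and 23.3 ± 2.38 with Chrdl1 (-0.081 ± 0.11). Glul, glutamine synthetase and also a marker of Muller glia, was at 70.8 ± 11.8 and 65.7 ± 13.0 FPKM. Of the 6 tested extracellular and accessory partners, 5 were positive and 1 negative (median 0.087), with no gene of 1 direction in all 3 pairs. Of the 6 tested transcription factors known to act on subunit genes, 4 were positive and 2 negative (median 0.019). Rcor1, a partner of the repressor REST, was at 7.61 ± 0.942 and 7.10 ± 0.842 FPKM, and Nrf1, an activator of Grin1 and Grin2b, at 5.50 ± 0.359 and 5.21 ± 0.368 FPKM. The 4 AMPA receptor genes were all positive, with a median of 0.040, and the 7 kainate and delta receptor genes one of 0.060, with 4 positive and 3 negative.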

How the data were processed

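The authors deposited 1 table of FPKM values, named so per the file headers, with the length in bases of 1 RefSeq transcript per gene symbol. FastQC, STAR 2.4.0k, HOMER 4.8.3 and the build rn6 are named, without their roles, per the submitters' processing notes. Neither annotation release nor strand setting is given there. Multiplied by length, 99.91% to 100% of the checked values above 0 came out as whole reads, allowing 0.0005 FPKM for rounding (3.74% to 6.74% by chance), which gave each library's read total.

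Treatment was tested on log2(FPKM + 1) by limma 3.58.1 under R 4.3.3 (moderated, mean-variance trend, both sides, Benjamini-Hochberg over 10390 transcripts), a scale that understates the change of low genes. Alternatives were other pseudocounts, filters and scalings, limma voom on recovered reads, and left-out libraries. Deviations from the group means correlated at 0.823, 0.86 and 0.842 within codes A, B and C, so the codes were taken to pair the libraries. Shares and ratios were compared with exact permutation tests in scipy 1.17.1.

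The members, lists and tests were chosen with earlier results of these data known. Besides the members, the text names from each partner list the genes, at most 2, whose unadjusted p was smallest among those moving one way in every pair, and for each tested member the 3 genes of closest profile. Marker genes and overlapping genes were named after their values were seen. Symbols of all 7 members matched the accession in a RefSeq table (GRCr8); its protein sequences were not used here.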

Additional observations from a re-analysis of the deposited data

How the results depend on the processing

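No NMDA receptor subunit gene was called for Chrdl1 against vehicle under any alternative run. Grin1 kept its negative and Grin2d its positive sign under all of them, and so did Grin3a its negative sign. Over all transcripts the count of 0 calls held except in the replicate block fits on only 2 pairs, which called 25 without pair A and 34 without pair B, none of them a member. The replicate block changed no call with all 6 libraries. The estimates of Grin2a, Grin2b and Grin3b lay so near 0 that their sign turned. Grin2a came to -0.0028 with the length trend removed, with or without the block, and to -0.17 under the block without pair C. Leaving out 1 library it ran from -0.24 (without the vehicle library of pair C) to 0.27, and was -0.18 without the Chrdl1 library of pair B. Grin2b came to -0.019 with the length trend removed, with or without the block, and to -0.0069 and -0.088 under the block without pairs A and C. Leaving out 1 library it ran from -0.080 (without the vehicle library of pair C) to 0.15, and was -0.059, -0.041 and -0.0030 without vehicle A, Chrdl1 B and Chrdl1 C. Grin3b came to -0.017 under the block without pair B. Leaving out 1 library it ran from -0.15 (without Chrdl1 B) to 0.16, and was -0.080 and -0.011 without vehicle A and vehicle C. The difference in Grin2b share ran from -1.82 to 0.331 points, positive without vehicle B, vehicle C or Chrdl1 A. That in Grin2a share ran from -5.44 to 3.73 points, positive without vehicle B, Chrdl1 A or Chrdl1 C. With 1 library gone, its pair stands in 1 group only. The count of transcripts differing between codes, 4930, was within 1.5 times of itself under each alternative. Depth limits Grin2c, which rests on 1 to 18 reads.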
